A study of Drosophila melanogaster with 4 samples.

Results

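ASH1 and FSH were mapped by ChIP-seq in S2-DRSC cells, a cultured line of embryonic origin from Drosophila melanogaster, and most ASH1 peaks coincided with a single FSH peak. The regions described here depart from that pairing, as 1 ASH1 peak stretches over several FSH peaks. They were selected by the measured positions of the peaks: an ASH1 peak was taken when it overlapped at least 2 FSH peaks by at least 1 bp each, on all chromosomes except the mitochondrial one. Of 10746 ASH1 peaks, 239 met this rule, or 2.22% (95% Wilson interval, 1.96% to 2.52%), and they made up 2.71% of the 8813 ASH1 peaks with any FSH peak. Below them lay 479 of the 8822 FSH peaks called in the same cells.

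ASH1 is a histone methyltransferase of the Trithorax group, which maintains active states of gene expression, and it modifies H3K36 in nucleosomes. FSH is the fly member of the BET family, whose paired bromodomains bind acetylated histone tails. Both proteins are known as activators of homeotic genes, and both are found at promoters and at other regulatory elements, where ChIP-seq reads pile up into peaks.

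The cells were untreated and the same chromatin was used for 4 libraries, 2 with antibodies against ASH1 (ASH1N and ASH1C) and 2 with antibody preparations against FSH. The labels assign one FSH preparation to FSH-S and the other to FSH-S and FSH-L, the short and the long isoform, whereas the methods assign one of them to FSH-L alone. The values are the same under either reading, as the libraries of each protein were pooled before 1 list of peaks was called per protein against input chromatin. There are therefore no replicates, the spread between libraries is unknown, and no test between groups of peaks is given. Intervals at 95% are Wilson intervals for shares and order-statistic intervals for medians. They cover counting error only and take each peak as independent of its neighbours.

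Each peak has a position in BDGP Release 5, printed here 1-based, and a score, read as the negative log10 of the peak caller's P value multiplied by 10, because no peak scored below 50.02 and the cut-off corresponds to 50. A score of exactly 3100 was shared by 1964 ASH1 and 1565 FSH peaks, so that peaks at 3100 or above have no useful order. The lists hold no read counts, and the depth behind a peak is unknown. Scores are compared within a list only. The regions are given by position and not by gene, since no gene annotation of that release was used.

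A second FSH peak was the usual limit. Of the 239 spanning ASH1 peaks, 232 overlapped 2 FSH peaks and 7 overlapped 3, and no ASH1 peak overlapped more. In all, 485 contacts between an ASH1 and an FSH peak were counted, and 6 FSH peaks were touched by a pair of spanning ASH1 peaks. Of the remaining ASH1 peaks, 8574 overlapped 1 FSH peak and 1933 overlapped none.

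The rule admits very small overlaps. Just inside it stood an ASH1 peak at chr3R:4883252-4884297 (1046 bp, score 209.58) whose smaller FSH overlap was 1 bp. The next were chr2L:20801758-20805139 (3382 bp, score 1385.31), chr2R:9805706-9806810 (1105 bp, score 583.33) and chrX:15783888-15784348 (461 bp, score 1447.44), each with a smaller overlap of 2 bp. The last of these was also the shortest spanning peak. Just outside it, ASH1 peaks at chr2L:3354425-3355123, chr2R:3550895-3552147 and chr3R:21472376-21473374 with scores of 691.23, 449.98 and 2680.73 missed a further FSH peak by 1 bp. Of the 8574 ASH1 peaks with 1 FSH peak, 165 missed another by up to 50 bp and 16 by up to 10 bp. Small shifts in peak borders would thus change the membership at the margin.

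The 7 ASH1 peaks over 3 FSH peaks lay on chromosomes 2L, 2R, 3L and 3R. The longest of them, at chr3R:5907205-5916140, was 8936 bp long with an ASH1 score of 3100. Its FSH peaks had scores of 3100, 793.05 and 203.32 from left to right, separated by gaps of 946 bp and 125 bp. All 3 FSH peaks lay at least 97.1% inside the ASH1 peak, with the highest score at the left end.

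Next in length was the ASH1 peak at chr3R:5322318-5330880, of 8563 bp, which had a score of 1179.85. Its FSH peaks scored 3015.92, 388.19 and 310.09. The central one was 6529 bp long and alone covered 76.2% of the ASH1 peak, while the highest-scoring one was only 1036 bp long. The gaps were 24 bp and 6 bp, so that FSH peaks covered 98.8% of the ASH1 peak.

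At chr2R:18547431-18552048 an ASH1 peak of 4618 bp with a score of 1625.02 spanned FSH peaks with scores of 280.08, 510.5 and 3100. The last of these extended 3551 bp past the right end of the ASH1 peak. At chr2L:19545462-19549072 an ASH1 peak of 3611 bp with a score of 1242.6 covered FSH peaks with scores of 698.11 and 2017.87 in full but reached only 38 bp into the third, which scored 1479.26. In these regions the FSH signal continued beyond the ASH1 peak on the right.

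On chromosome 3L the ASH1 peaks at chr3L:2149848-2153346 and chr3L:10689621-10691936 had scores of 3100. The first spanned FSH peaks with scores of 221.33, 1320.23 and 327.88, and the other FSH peaks with scores of 190.88, 833.34 and 503.9. In both regions the central FSH peak had the highest score, none of the FSH peaks touched another ASH1 peak, and at least 86.3% of each FSH peak lay inside. At chr3L:4358312-4360217 the arrangement was different. Here the ASH1 peak scored 738.01 over 1906 bp and touched an FSH peak of 4697 bp and a score of 3100 by 27 bp, next to FSH peaks with scores of 82.62 and 213.71. FSH peaks covered 50.4% of this ASH1 peak.

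**Figure D1:**
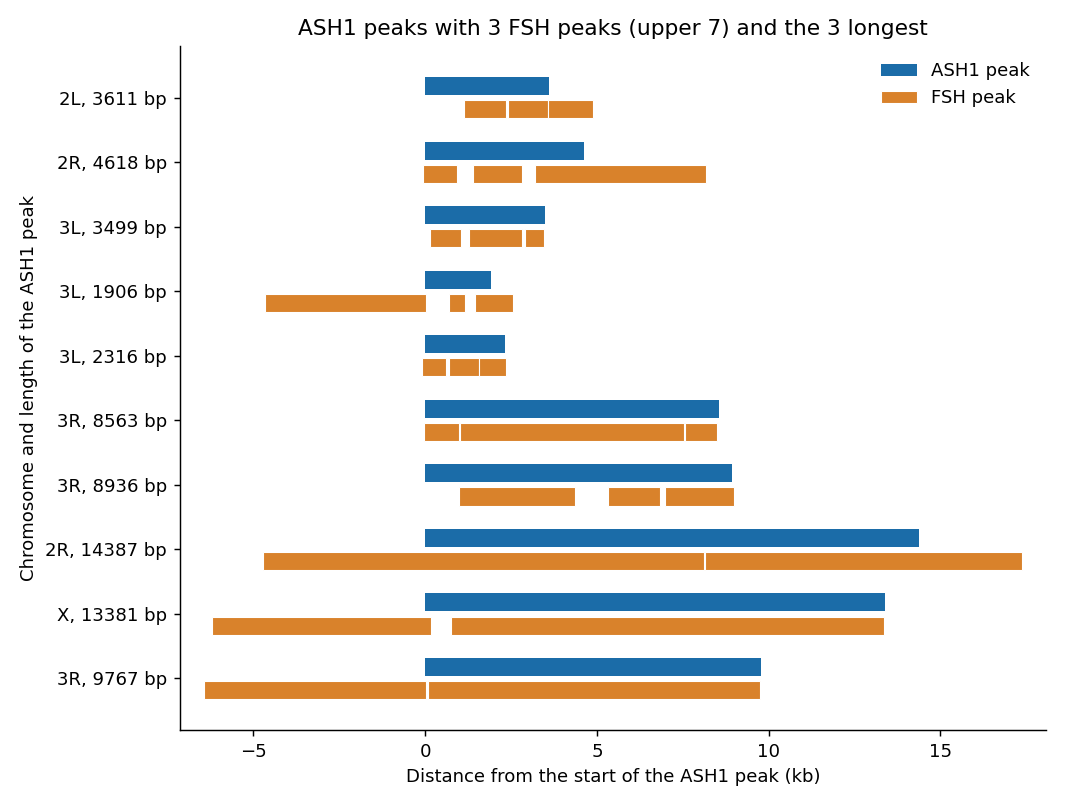
Positions of ASH1 peaks (blue) and of the FSH peaks they overlap (orange), in kb from the start of the ASH1 peak, for the 7 ASH1 peaks with 3 FSH peaks (upper rows) and the 3 longest spanning ASH1 peaks (lower rows). The FSH peaks are separated by gaps of 6 bp to 946 bp, with white edges that exceed the narrowest gaps in width, and several of them run far past the end of the ASH1 peak.

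Spanning ASH1 peaks were long, which the rule favours, since a longer peak can reach more neighbours. Their lengths ranged from 461 bp to 14387 bp with a median of 1857 bp (95% interval, 1591 to 2008 bp), against a median of 925 bp (909 to 938 bp) for ASH1 peaks with 1 FSH peak. The middle of the distributions overlapped, as the quartiles were 1192 and 2822 bp for spanning peaks and 652 and 1399 bp for the others.

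The share of ASH1 peaks that spanned several FSH peaks was larger in each longer class. Spanning peaks were 1 of 808 (0.124%) up to 500 bp, 12 of 3561 (0.337%) up to 750 bp and 14 of 2139 (0.655%) up to 1000 bp. They were 67 of 2151 (3.11%) up to 1500 bp, 41 of 951 (4.31%) up to 2000 bp and 54 of 727 (7.43%) up to 3000 bp. In the longest classes they were 23 of 236 (9.75%) up to 4000 bp and 27 of 173 (15.6%) above that. Even among ASH1 peaks over 4000 bp, the upper bound of the interval was 21.8%, so most of the longest ASH1 peaks met a single FSH peak or none. The classes are read against the 2.22% over all ASH1 peaks, and length is part of what the rule uses.

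**Figure D2:**
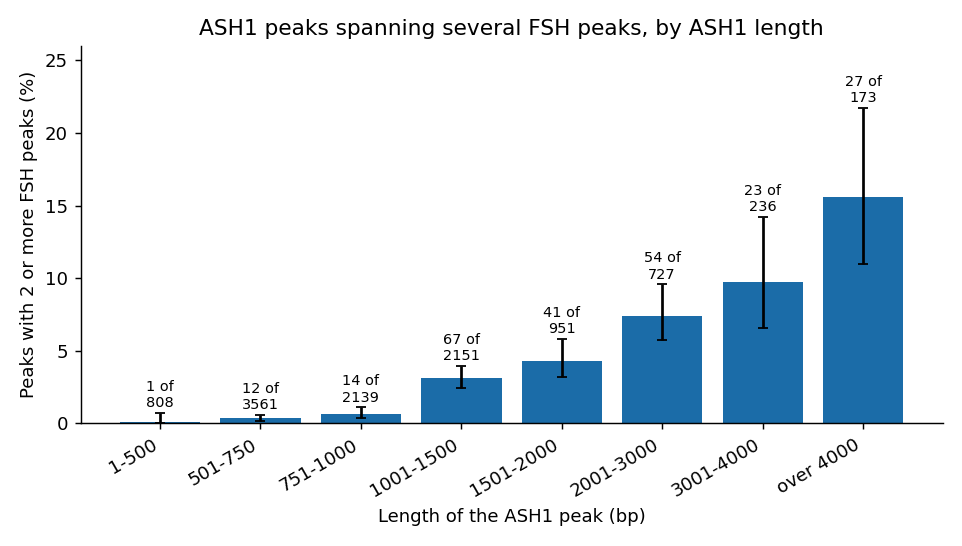
Share of ASH1 peaks that overlap 2 or more FSH peaks (%), by length of the ASH1 peak in bp. Bars give the share, error bars the 95% Wilson interval, and the numbers above the bars count spanning peaks of all ASH1 peaks in that class, from 0.124% in the shortest to 15.6% in the longest class.

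The 2 longest spanning peaks had low ASH1 scores and FSH scores of 3100. The first, at chr2R:6417127-6431513, was 14387 bp long and had an ASH1 score of only 178.57. It spanned FSH peaks of 12831 bp and 9240 bp, both with a score of 3100, which were separated by 22 bp and ran 4716 bp past its left end and 2990 bp past its right end. The other, at chrX:8779316-8792696, was 13381 bp long with an ASH1 score of 89.39. It contained a whole FSH peak of 12599 bp and touched another of 6366 bp by 164 bp, both with a score of 3100, across a gap of 584 bp.

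The next in length differed in the ASH1 score. It lay at chr3R:27427594-27437360 and was 9767 bp long with a score of 3100, and its FSH peaks also scored 3100. One of these, of 9665 bp, was wholly inside and covered 99.0% of the ASH1 peak, while the other was reached by 21 bp at the left end. The rule thus counted this region as spanning because of an overlap that was 0.325% of the FSH peak.

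The scores of spanning ASH1 peaks covered nearly the whole range, between 52.35 and 3222.65, with a median of 1984 (1627 to 2439). ASH1 peaks with 1 FSH peak had a median score of 1144 (1099 to 1190). A score of 3100 or more was found in 80 of the 239 spanning peaks (33.5%; 27.8% to 39.7%) and in 1979 of the 8574 others (23.1%). Since longer ASH1 peaks also had higher scores, the medians are given within classes of length. Of the 7 classes with more than 1 spanning peak, spanning peaks had the lower median score in 5 and the higher in 2. The 2 classes in which it was higher were those over 1000 and up to 1500 bp, with 1676 for spanning peaks and 1596 for peaks with 1 FSH peak, and over 1500 and up to 2000 bp, with 2562 for spanning peaks and 1963 for the others. In shorter peaks it was lower, at 543 for spanning peaks and 584 for the others over 500 and up to 750 bp, and at 842 and 1042 in the same order over 750 and up to 1000 bp. It was also lower in all classes over 2000 bp. Over 2000 and up to 3000 bp the median was 2280 for spanning peaks and 2492 for the others, and over 3000 and up to 4000 bp it was 1984 for spanning peaks and 3100 for the others. Over 4000 bp it was 2394 for spanning peaks and 3100 for the others, with 48.1% and 63.4% of the peaks at 3100 or more. The higher median over all spanning peaks was thus not found in most classes of length. These class medians carry no intervals, and one rests on only 12 spanning peaks. The share at 3100 or more did not always follow them. It was 16.7% for spanning peaks and 11.6% for the others over 500 and up to 750 bp. Over 1500 and up to 2000 bp it was 29.3% and 35.2% in the same order.

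The 3 lowest ASH1 scores among the spanning peaks were found where the highest FSH score was 1022.31 or more. At chr2R:14293314-14295055 the ASH1 score was 52.35, and the FSH scores were 1022.31 and 119.31. At chrX:13165401-13165980 an ASH1 peak of 580 bp with a score of 64.47 touched FSH peaks with scores of 3100 and 2001.05. At chrX:5788809-5789493 an ASH1 peak of 685 bp with a score of 72.08 touched FSH peaks with scores of 3100 and 355.41. Both short peaks on the X lay across the border between neighbouring FSH peaks, of which at most 29.0% was inside.

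FSH peaks below one ASH1 peak were close neighbours. The 246 gaps between them had a median of 67.5 bp (51 to 84 bp), with quartiles of 21 and 159 bp and a range of 1 to 1951 bp. Gaps of up to 25 bp numbered 74 (30.1%), gaps of up to 100 bp 161 (65.4%; 59.3% to 71.1%) and gaps of up to 200 bp 197 (80.1%). Only 4 gaps exceeded 1000 bp.

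The narrowest gaps were 1 bp. At chr2R:6761492-6762697 the ASH1 peak scored 3100 and its FSH peaks 777.83 and 251.23. At chr3L:15580660-15582811 the ASH1 peak also scored 3100 and its FSH peaks 890.73 and 3100. In both regions the FSH peaks almost touched, but a border was drawn between peaks of quite different score. Gaps of 2 bp were found below 4 ASH1 peaks, at chr2L:13089872-13091178, chr2R:9317499-9319817, chr3L:7799413-7801538 and chr3R:5083762-5085400, with ASH1 scores of 313.93, 909.44, 629.44 and 2719.27. The FSH scores at chr3R:5083762-5085400 were only 163.62 and 62.65.

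The widest gaps were found below long ASH1 peaks, as only a long peak can reach across them. Their ASH1 scores were 2386.94 or more, beside a median of 2394 for all spanning peaks over 4000 bp. At chr2L:7972189-7977217 the ASH1 peak (5029 bp, score 3100) spanned FSH peaks with scores of 753.91 and 3100, which lay 1951 bp apart and covered 38.5% of it. At chr2R:3358130-3363169 the ASH1 peak (5040 bp, score 3100) spanned FSH peaks with scores of 3100 and 329.22 across a gap of 1731 bp. At chr3R:12938639-12945241 (6603 bp, score 2386.94) the FSH scores were 3100 and 1572.3, and the gap was 1403 bp. The remaining gap over 1000 bp was 1265 bp at chr3L:15503668-15508827 (5160 bp, score 2394), between FSH scores of 529.9 and 3100. In all 4 regions at least one FSH peak had a score of 3100, against 74 of all 239 regions (31.0%) with 3100 or more. Longer spanning peaks had higher FSH scores, with a Spearman's rho of 0.49 between ASH1 length and highest FSH score. The part of length in this count was not tested.

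Apart from such gaps, spanning ASH1 peaks were almost filled by FSH. FSH peaks covered a median of 93.8% of a spanning ASH1 peak (92.5% to 95.1%), against 99.3% of an ASH1 peak with 1 FSH peak. At least 90% was covered in 160 spanning peaks, and less than 50% in 2, the one at chr2L:7972189-7977217 and another at chr3R:7912245-7913863 with 42.9%. That peak at chr3R:7912245-7913863 had an ASH1 score of 300.57 and FSH scores of 3100 and 69.21.

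To see how often a gap between FSH peaks lay within one ASH1 peak, all neighbouring FSH peaks were examined. Of 1779 neighbours up to 1 kb apart, 242 (13.6%) were bridged by a single ASH1 peak. The median gap was 65 bp for bridged and 335 bp for unbridged neighbours. The share was largest for the closest neighbours, with 74 of 155 gaps of up to 25 bp (47.7%). It was 27.2% between 26 and 50 bp, 25.6% between 51 and 100 bp, 14.3% between 101 and 200 bp, and 4.91% between 301 and 500 bp. Between 501 and 1000 bp, 7 of 559 gaps (1.25%) were bridged. A peak that bridges a wide gap has to be long, and the part of peak length in this decline was not tested.

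Most close FSH neighbours were not bridged, although ASH1 was present. Of 488 FSH gaps of up to 100 bp, 161 (33.0%) lay below one ASH1 peak. In 260 gaps the FSH peaks on either side overlapped different ASH1 peaks, in 59 gaps only one side had an ASH1 peak, and in 8 gaps neither had. The reverse arrangement was more frequent. Of 750 gaps of up to 100 bp between neighbouring ASH1 peaks, 501 (66.8%) were bridged by a single FSH peak, and up to 1 kb the share was 888 of 2723 (32.6%). FSH peaks that overlapped several ASH1 peaks numbered 757. In each class of gap width up to 2000 bp, the share of ASH1 gaps below one FSH peak was the larger one. FSH peaks were also longer, with medians of 1042 bp below spanning ASH1 peaks and 998 bp elsewhere, against 853 bp for all ASH1 peaks. The part of peak length in this difference between the lists was not tested.

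**Figure D3:**
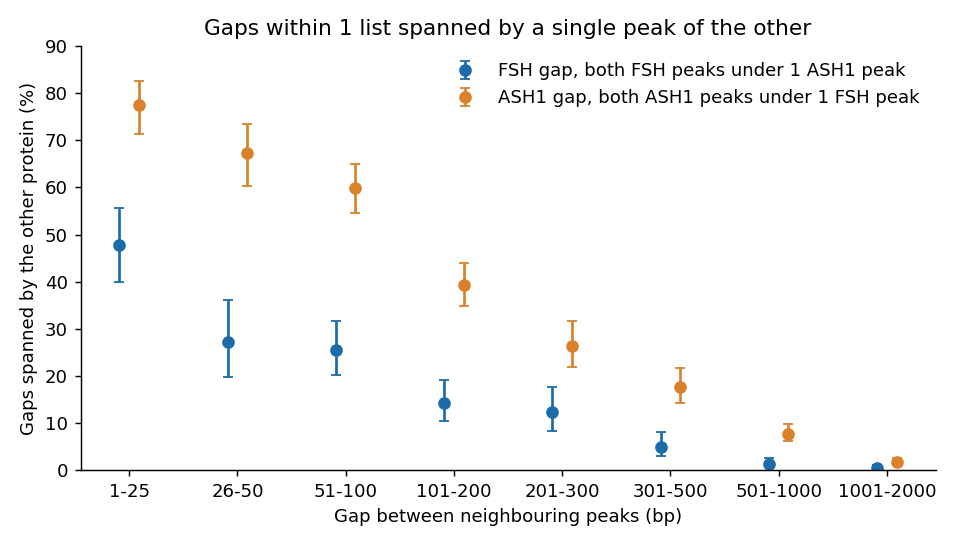
Share of gaps between neighbouring peaks of one list that are bridged by a single peak of the other list (%), by width of the gap in bp, with 95% Wilson intervals. FSH gaps below one ASH1 peak (blue) lie at 47.7% up to 25 bp and at 1.25% between 501 and 1000 bp, and ASH1 gaps below one FSH peak (orange) lie above them in every class.

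Neighbouring FSH peaks below one ASH1 peak often differed widely in score. The highest FSH score in a region had a median of 1654 (1275 to 2009) and the lowest a median of 221 (179 to 309). Their difference had a median of 826 (544 to 1110). In 99 of the 239 regions (41.4%) the highest score was more than 5 times the lowest, while in 77 regions (32.2%) the scores were within a factor of 2. Such ratios of scores compare the exponents of P values and not amounts of protein. The other FSH peaks also ranged widely in score, with quartiles of 224 and 2160. Score differences between FSH neighbours without a bridging ASH1 peak were not examined.

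The largest differences in which no FSH peak reached 3100 were found in 3 regions, with chr3R:5322318-5330880, described above, in first place. At chr2L:12717891-12721507 the ASH1 peak (3617 bp, score 1189.76) spanned FSH peaks with scores of 2752.51 and 176.79, separated by 53 bp. At chr3R:1496454-1497959 the ASH1 peak (1506 bp, score 735.92) lay across a gap of 372 bp between FSH peaks with scores of 2811.42 and 262.49. Of these FSH peaks, 33.6% and 7.11% in the same order lay inside, and together they covered 75.3% of the ASH1 peak. In both the stronger FSH peak was also the longer.

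Length and score went together in most regions, as the FSH peak with the highest score was also the longest in 175 of the 229 regions with a single highest score (76.4%). At least one FSH peak had a score of 3100 or more in 74 regions, and every FSH peak did in 10. These 10 included the 3 longest spanning peaks. The others had ASH1 scores of 3100 at chr2L:158386-162508, chr2L:7826831-7829388, chr2R:19944192-19946382 and chrX:2018246-2020182, of 1559.88 at chr3L:3245338-3248211, of 1439.54 at chr3L:4118918-4123324, and of 133.8 at chr3L:16796454-16797484. At the other end, all FSH peaks were below 300 in 29 regions, and in 55 regions at least one was below 100.

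As a whole, the 479 FSH peaks were not the strongest of their list. Their median score was 603 (511 to 708), against 708 (676 to 737) for the other 8343 FSH peaks, and 84 (17.5%) against 1547 (18.5%) had a score of 3100 or more. Their median length was 1042 bp (971 to 1136 bp), against 998 bp (980 to 1013 bp). The intervals overlapped in both measures. Other FSH peaks include those without ASH1.

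**Figure D4:**
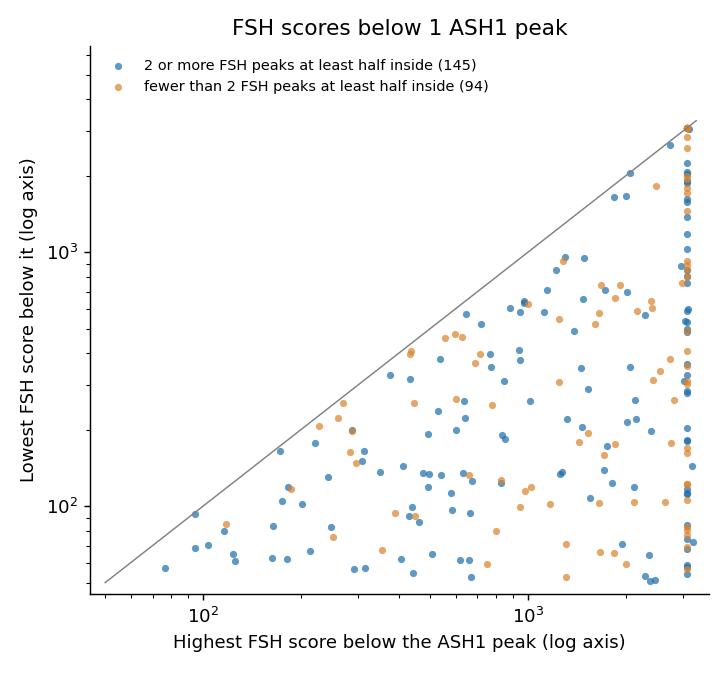
Lowest (vertical axis) against highest (horizontal axis) FSH score below the same ASH1 peak, both on log axes, for the 145 spanning ASH1 peaks with 2 or more FSH peaks at least 50% inside (blue) and the 94 with fewer (orange). The grey line marks equal scores, points far below it are regions with one strong and one weak FSH peak, and the column at the right holds the 74 regions whose highest score is 3100 or more.

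FSH peaks usually reached past the ends of the ASH1 peak. They extended past both ends in 125 regions (52.3%), past one end in 96 (40.2%) and past neither in 18 (7.53%). Of the 485 contacts, 139 were with FSH peaks wholly inside, 379 (78.1%) with FSH peaks at least 50% inside, and 61 with FSH peaks less than 10% inside. In 39 contacts the overlap was below 50 bp. The median contact had 94.2% of the FSH peak inside.

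The regions were divided by whether at least 2 of their FSH peaks lay at least 50% inside the ASH1 peak. In 145 regions (60.7%; 54.4% to 66.6%) at least 2 FSH peaks were at least 50% inside, and in 21 of the 239 regions at least 2 were wholly inside. These 145 had a median ASH1 length of 2126 bp, a median ASH1 score of 2645 and a median widest gap of 76 bp. The other 94 had a median ASH1 length of 1275 bp, a median ASH1 score of 1109 and a median widest gap of 48 bp. The median of the highest FSH score was 1320 (941 to 1837) in the 145 and 1893 (1536 to 2639) in the 94. The median difference between FSH scores was 570 (419 to 1034) in the 145 and 1090 (704 to 1387) in the 94. The ASH1 peaks of the 145 regions were thus longer and higher in ASH1 score, while the intervals of both FSH measures overlapped. The split uses the lengths of ASH1 and FSH peaks. Length went together with score for ASH1 peaks, and for FSH peaks within most regions. None of these differences is therefore independent of how the split was made.

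Sharing of an FSH peak with a further ASH1 peak followed the same split. An FSH peak also overlapped another ASH1 peak in 104 of the 239 regions (43.5%; 37.4% to 49.9%), and in 13 regions at least 2 did. Such sharing was found in 17 of the 145 regions with at least 2 FSH peaks at least 50% inside (11.7%; 7.45% to 18.0%). It was found in 87 of the other 94 (92.6%; 85.4% to 96.3%). The split bears on this, since an FSH peak that lies mostly inside one ASH1 peak has less length left for another. Of the 479 FSH peaks, 111 (23.2%; 19.6% to 27.2%) overlapped more than 1 ASH1 peak, against 646 of the other 8343 (7.74%). The rule puts an ASH1 peak over each of the 479, whereas the others include FSH peaks without ASH1. These shares therefore depend in part on the rule. Up to 5 ASH1 peaks were counted on a single one of the 479.

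Other ASH1 peaks were also near. The nearest other ASH1 peak was a median of 278 bp away from a spanning peak (205 to 423 bp), against 1364 bp (1297 to 1419 bp) for ASH1 peaks with 1 FSH peak. It was within 1 kb for 158 of the 239 spanning peaks (66.1%; 59.9% to 71.8%) and for 3768 of the 8574 others (43.9%). The distances overlapped widely, as the spanning peaks ranged between 1 and 56641 bp. They are not independent of the rule, which takes places with neighbouring FSH peaks. In 104 of the 239 regions an FSH peak was shared with another ASH1 peak.

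When overlapping peaks of both lists were followed from one to the next, the 239 spanning peaks lay in 233 chains of peaks. The median chain was 2521 bp long and the longest 25249 bp. The smallest possible chain, 1 ASH1 peak with 2 FSH peaks, was found 131 times, and 26 chains had 5 or more peaks. In 135 chains the spanning peak was the only ASH1 peak, and 6 chains held a pair of spanning peaks.

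The chains with the most peaks were picked after the values had been seen, and the first lay at chr3L:16792612-16801878. It had 7 ASH1 peaks on only 2 FSH peaks, which both scored 3100 and were 4180 bp and 4900 bp long. The spanning ASH1 peak of this chain, at chr3L:16796454-16797484, scored 133.8 and lay across the gap of 187 bp between them. A chain at chr3L:4353642-4360898 had 4 ASH1 and 3 FSH peaks, one at chr2L:12420500-12425091 had 3 ASH1 and 3 FSH peaks with a pair of spanning ones, and one at chrX:7585612-7588688 had 4 ASH1 and 2 FSH peaks. In 3 of these 4 chains ASH1 peaks outnumbered FSH peaks. This was not the usual arrangement, since 135 of all 233 chains held 1 ASH1 peak with several FSH peaks.

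All 239 regions were on the major chromosome arms. Spanning peaks were 36 of 1889 ASH1 peaks on X (1.91%), 44 of 1934 on 2L (2.28%), 44 of 2018 on 2R (2.18%), 61 of 2079 on 3L (2.93%; 2.29% to 3.75%) and 54 of 2369 on 3R (2.28%). The intervals of the 5 arms overlapped. On chromosome 4 the count was 0 of 116 ASH1 peaks, which allows a share of up to 2.59% (3 counts of the total; the Wilson upper bound is 3.21%). On heterochromatic or unplaced sequence it was 0 of 341, which allows a share of up to 0.880% by the same rule (Wilson upper bound, 1.11%). Both limits for chromosome 4 lie above the 2.22% over all ASH1 peaks. ASH1 peaks on heterochromatic or unplaced sequence were short, with a median of 615 bp against 866 bp on the arms. Only 58 of those 341 were over 1 kb, and the part of length in their count of 0 was not tested.

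The X differed from the autosomal arms in length. Its spanning peaks had a median length of 1217.5 bp, against 1855 to 2148 bp on the other arms, and all ASH1 peaks on X had a median of 667 bp, against 864 to 944 bp. Among ASH1 peaks over 1 kb, 28 of 441 (6.35%) spanned several FSH peaks on X and 51 of 815 (6.26%) on 3L, against 4.46%, 4.62% and 4.71% on 2L, 2R and 3R. The median ASH1 score of spanning peaks on X was 2375, within the range of 1713 to 2375 on the other arms, although ASH1 peaks with 1 FSH peak had a median of 716 on X and of 1119 to 1340 elsewhere.

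ASH1 and FSH scores were only loosely related in these regions. Across the 239 regions, Spearman's rho between the ASH1 score and the highest FSH score was 0.17, against 0.33 across the 8574 ASH1 peaks with 1 FSH peak. For spanning peaks the FSH score is the highest of 2 or 3, and for the 8574 it is the only one. Values of rho with an FSH score are therefore not like for like between these groups. Between the ASH1 length and the highest FSH score rho was 0.49 (0.41 across the 8574), and between the ASH1 length and the ASH1 score it was 0.28 (0.46 across the 8574). The higher and the lower FSH score of a region had a rho of 0.44. These values are descriptions across regions that share the same pooled libraries, peak caller and peak lengths, and many scores are tied at 3100.

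The extremes of this relation were picked out after the values had been seen. In 6 regions the ASH1 score was 3100 or more while all FSH scores were below 300. They were chrX:15834184-15835335 with FSH scores of 92.99 and 94.22, chrX:15369169-15370369 with 94.46 and 68.26, and chrX:12803387-12804390 with 202.12 and 102.16. The autosomal ones were chr2L:8464071-8465176 with 222.25 and 261.33, chr2R:14858351-14859356 with 270.09 and 255.42, and chr3R:11145378-11146821 with 243.2 and 130.73. All 6 were short among spanning peaks, at 1004 to 1444 bp, and 3 of them were on X. The opposite case, an ASH1 score below 300 with an FSH score of 3100 or more, was found in 5 regions. These were the 2 longest spanning peaks and those at chrX:13165401-13165980, chrX:5788809-5789493 and chr3L:16796454-16797484. Of these 5 regions, 3 were also on X, which held 36 of the 239 spanning peaks. Whether X was over-represented in either case was not tested.

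**Figure D5:**
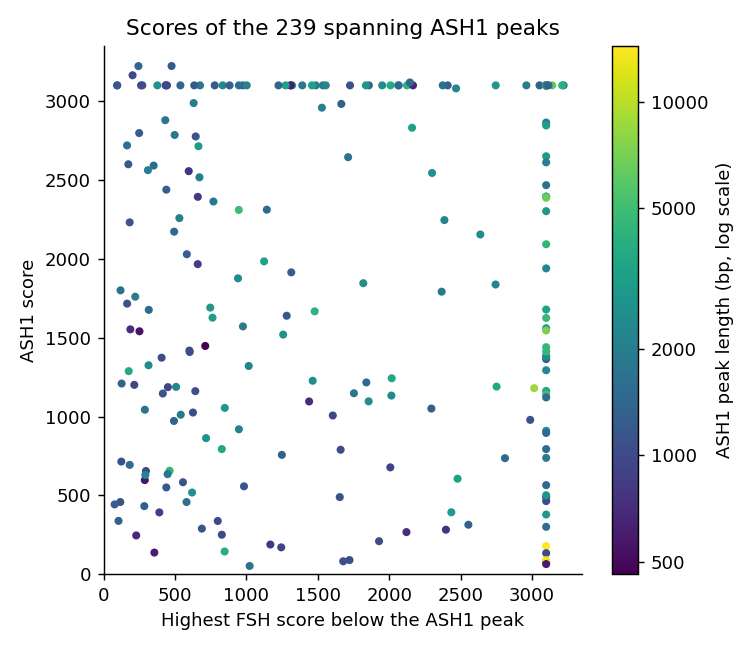
ASH1 score against the highest FSH score below it for the 239 spanning ASH1 peaks, coloured by ASH1 peak length in bp on a log scale. Points on the upper edge have an ASH1 score of 3100 or more (80 regions) and points at the right edge an FSH score of 3100 or more (74 regions), and the 2 longest peaks lie at the lower right with ASH1 scores of 178.57 and 89.39.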

How the data were processed

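Chromatin of S2-DRSC cells was precipitated with 2 antibodies against ASH1 and 2 preparations against FSH. Reads were aligned by the authors to BDGP Release 5, who pooled the alignments of each protein and called peaks against input. The submitters' processing notes name Bowtie 0.12.7, SAMtools 0.1.9 and MACS 1.4.0. The deposited lists hold the position and 1 score per peak, without a header or read counts. Where the caller set borders between close peaks decides membership, and no signal track was used here to examine those borders.

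From these lists, 2 mitochondrial peaks per list were left out. Overlaps of at least 1 bp were counted with Python 3.11.15, numpy 2.4.6, pandas 2.3.3 and scipy 1.17.1, figures were drawn with matplotlib 3.10.9, and the number of FSH peaks per ASH1 peak was equal to that from BEDTools 2.31.1 for 10746 of 10746 peaks. The counting was tested on simulated lists. Members, classes and the rule for named regions (3 FSH peaks, the 3 longest, widest and narrowest gaps, largest FSH difference, lowest ASH1 score) were chosen with earlier results of these data known. Ties under this rule were all named, and all other regions given by position, apart from those at the threshold, were chosen after their values were seen. A gene table of Release 6 was not used for positions. The effect of 5 alternatives, and of 1 more chosen after seeing the data, is given in the closing section.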

Additional observations from a re-analysis of the deposited data

How the results depend on the processing

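The libraries were pooled before peak calling, so leaving out a replicate could not be done. No paired analysis was possible because the lists carry no replicates. With peaks of the euchromatic arms only, the share of ASH1 peaks was 2.32%. The other results could not change, since all 239 regions were on these arms. With FSH overlaps of at least 50 bp the share of ASH1 peaks was 1.88% (202 peaks) and the share of spanning peaks with a shared FSH peak 32.2%. With scores of at least 100 in both lists the share of ASH1 peaks was 1.87% (179 peaks). With at least 50% of each FSH peak inside, 145 regions remained (1.35%), with a median length of 2126 bp, 41.4% at a score of 3100 or more and 0% with a shared FSH peak, which follows from the setting, since 1 FSH peak cannot be mostly inside several ASH1 peaks. Joining FSH peaks up to 100 bp apart gave 82 regions (0.763%), a median length of 2253.5 bp, a median gap of 216 bp, a coverage of 85.5% and a median FSH score difference of 1436. Joining neighbours in both lists, chosen after seeing the data, gave 135 regions (1.35%), with 2851 bp, 221.5 bp, 88.1% and 1126 for the same 4 measures, 44.4% at 3100 or more and 22.2% with a shared FSH peak. The number of regions thus depended on how borders between close peaks were drawn. The score limits comparisons at 3100 and the lists hold no depth per peak.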
